A study of Homo sapiens with 9 samples.

Results

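A set of 40 genes for ligands of the EGF, FGF, PDGF and VEGF receptor families was followed in 293T cells that made a fusion of the transcription factor CIC. The genes were chosen by symbol and make up 40 of the 62700 genes counted. By family they are 11 EGF-type ligands, 15 secreted paracrine FGFs, 3 endocrine FGFs, 4 intracellular FGF homologous factors and 7 PDGF and VEGF genes. The 9 libraries of polyA RNA came from 3 groups of 3, all of the same cell line: cells transfected with empty vector, with HA-CIC::DUX4, or with HA-CIC(ex20)::NUTM1(ex6), the last called CIC::NUTM1 here. 293T is a human embryonic kidney line that carries the SV40 large T antigen. The fusions carried an HA tag and were delivered on plasmids by transient transfection, and RNA was taken about 48 hours later, so each culture can hold transfected and untransfected cells, and a higher level from more expressing cells cannot be told apart from more RNA per cell. Replicates were transfected on separate days. The fusion transcripts themselves, and CIC, NUTM1 and DUX4, were not analysed here.

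These ligands bind receptor tyrosine kinases at the cell surface: EGF-type ligands bind the ERBB receptors, secreted FGFs bind FGFR1 to FGFR4 together with heparan sulfate or a Klotho protein, and PDGFs and VEGFs bind their own receptor pairs. The active receptors recruit adaptors to RAS and turn on the RAF, MEK and ERK kinases. CIC is a repressor of genes that respond to this pathway, such as ETV4, ETV5, DUSP6 and SPRY4, and ERK signalling relieves that repression. In CIC::DUX4 and CIC::NUTM1 sarcomas the fused partner turns CIC into an activator. The comparison therefore asks which growth factor genes upstream of the pathway differ after a fusion is introduced.

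The promoters of FGF1, FGF7 and FGF18 are shown because these genes rose by the largest factors in both fusion groups, and that of PDGFA because, with FGF1, it was higher for CIC::NUTM1 than for CIC::DUX4. Each is genomic sequence upstream of the outermost RefSeq start, from RefSeq on GRCh38.p14, shortened to its part outside every GENCODE 29 exon. The FGF1 and FGF18 stretches reach that start, while exon sequence was left out between the stretch and the start of FGF7 (49423242) and of PDGFA (520226). For FGF1 and for PDGFA, 2 further RefSeq starts each gave stretches, which hold 0 copies of AGGAAG and are not shown. Which start the cells used was not examined. Capitals mark AGGAAG, the core of the site bound by ETS factors of the PEA3 group such as ETV4 and ETV5.
FGF1 promoter, chr5:142698071-142698320, minus strand: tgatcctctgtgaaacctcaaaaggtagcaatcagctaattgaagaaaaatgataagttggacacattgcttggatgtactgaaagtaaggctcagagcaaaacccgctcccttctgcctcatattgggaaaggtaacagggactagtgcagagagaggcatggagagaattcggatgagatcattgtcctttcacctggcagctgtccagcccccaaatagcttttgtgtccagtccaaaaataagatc
FGF7 promoter, chr15:49422992-49423095, plus strand: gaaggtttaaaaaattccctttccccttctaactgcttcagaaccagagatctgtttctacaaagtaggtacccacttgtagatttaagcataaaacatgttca
FGF18 promoter, chr5:171419397-171419646, plus strand: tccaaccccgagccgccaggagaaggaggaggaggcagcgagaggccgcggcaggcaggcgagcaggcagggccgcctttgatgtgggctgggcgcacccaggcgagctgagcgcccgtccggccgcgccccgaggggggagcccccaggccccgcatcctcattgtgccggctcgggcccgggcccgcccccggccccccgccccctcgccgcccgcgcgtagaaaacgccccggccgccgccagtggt
PDGFA promoter, chr7:520297-520390, minus strand: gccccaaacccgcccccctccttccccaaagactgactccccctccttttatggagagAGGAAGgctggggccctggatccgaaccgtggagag

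RefSeq promoter windows of 300 bases, 250 before a start and 50 after it, were at hand for 29 of the 40 genes, in 46 windows. The octamers bound by CIC, TGAATGAA and TGAATGGA, which overlap in their shared letters, were looked for on both strands. They were in 0 of the 46 windows, against 2.63% of the 35116 windows of all genes. AGGAAG on either strand was in 8 of 46 windows (17.4%), against 33.6% of all windows. TGANTCA, the AP-1 site, was in 4 of 46 windows (8.7%), against 7.71%. The latter pair of motifs was chosen after the values were seen. These letters were searched in a short window, and enhancers were not examined.

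Of the 40 ligand genes, 25 had enough reads to be tested and 10 were called in at least 1 of the 3 comparisons. A call means a Benjamini-Hochberg adjusted p under 0.05 in edgeR's quasi-likelihood test over all 17576 tested genes. With CIC::DUX4, 5 ligand genes were higher than with empty vector (HBEGF, NRG2, FGF1, FGF7 and FGF18), where 6.96% of all tested genes were called higher. None was called lower, where 1.27% of all tested genes were. At an unadjusted p under 0.05, 1 ligand gene was lower, and DESeq2 and limma also called 0. With CIC::NUTM1, 8 ligand genes were higher than with empty vector (HBEGF, NRG2, FGF1, FGF7, FGF10, FGF18, PDGFA and PDGFC), against a background of 11.5%. The one that was lower was FGF9, against a background of 3.83%. Between the fusions, FGF1 and PDGFA were higher with CIC::NUTM1 (background 4.97%) and FGF2 was lower (background 1.64%). The comparisons with empty vector share its 3 libraries, so their results are given side by side and not as support for each other.

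The median log2 fold change of the 25 tested ligand genes was 0.153 for CIC::DUX4 and 0.0571 for CIC::NUTM1, beside -0.00145 and -0.000863 over all tested genes. FGF1 and FGF7 were at 0 in every empty vector library and passed the filter on low counts through the fusion libraries alone. FGF10 (1, 16 and 8 counts with empty vector) and FGF18 (12, 12 and 7) also passed it only with the fusion libraries. The counts of calls and these medians are therefore descriptions. Setting FGF1 and FGF7 to the lower bounds given below leaves the medians as they are by construction, since the bounds lie above them. Library totals ran from 16970771 to 33655445 counts. A gene with 0 counts in the empty vector group was set to a floor of 3 counts per library, a mean of 0.127 CPM (reads of a gene relative to the depth of its library after TMM scaling), to give a lower bound of its fold change.

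**Figure D1:**
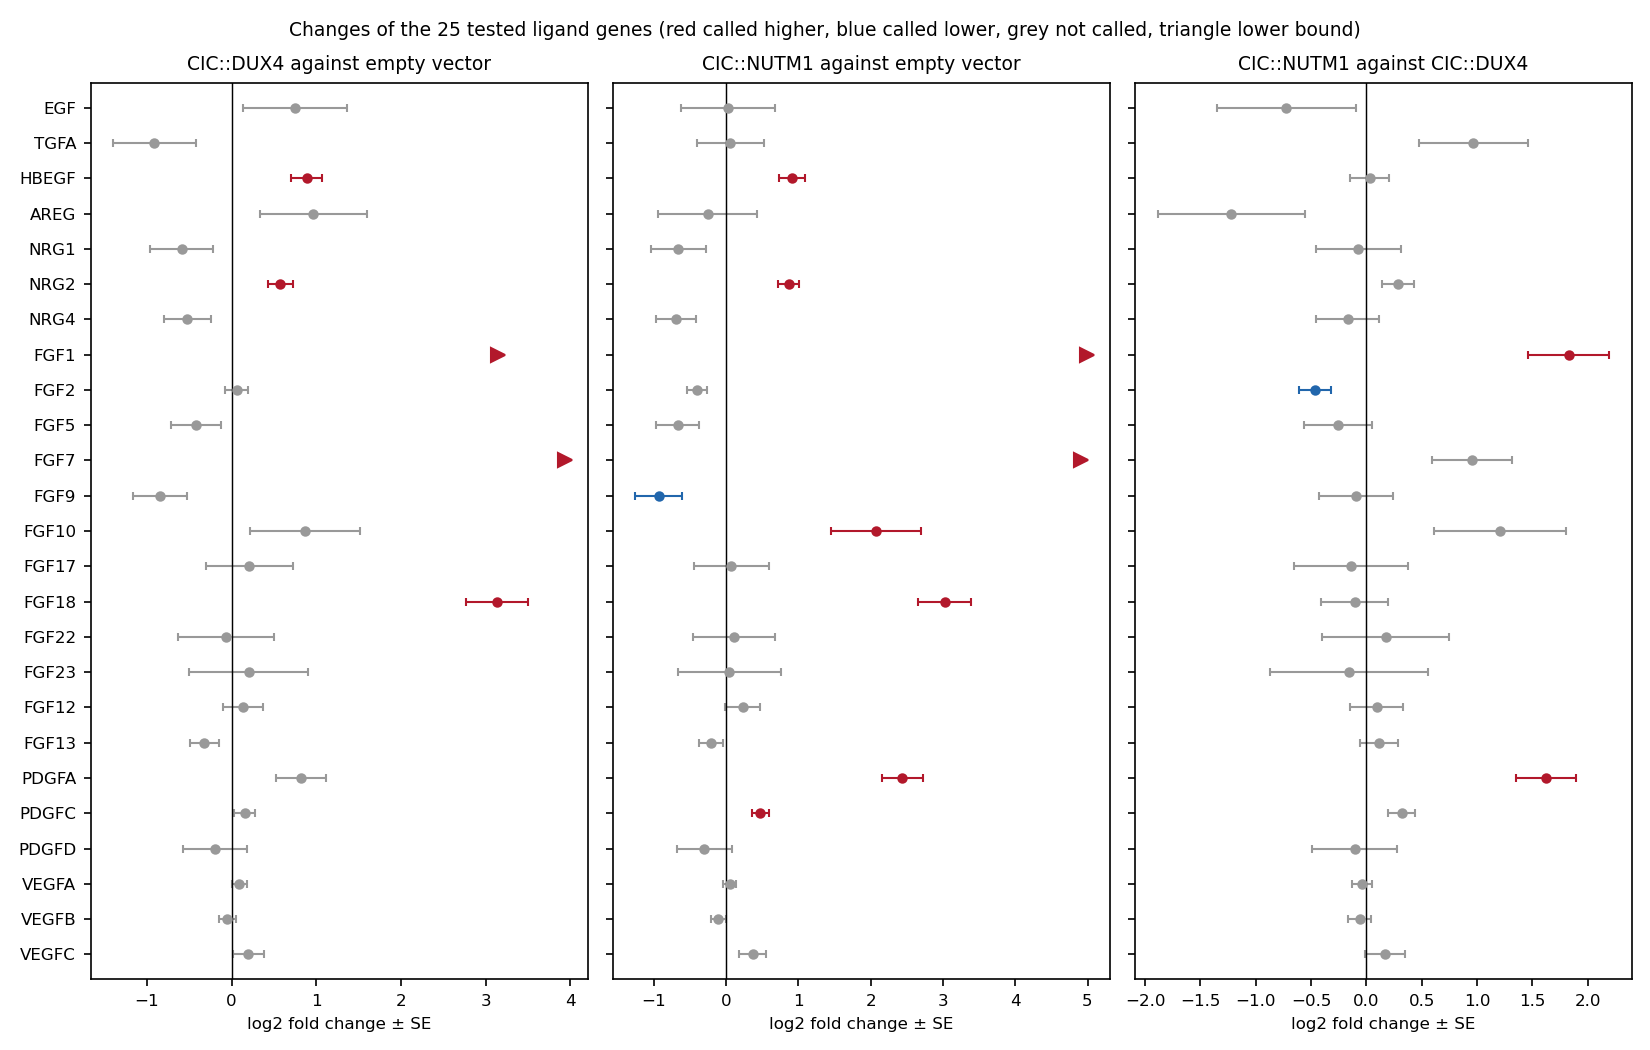
Log2 fold change with its SE (x axis) for each of the 25 tested ligand genes (rows) in the 3 comparisons (panels, each with its own x range), with triangles at the lower bound for FGF1 and FGF7, which had 0 counts with empty vector. FGF1, FGF7 and FGF18 lie far to the right in both comparisons with empty vector, and PDGFA does so with CIC::NUTM1.

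The EGF-type ligands that rose were HBEGF and NRG2. HBEGF encodes the heparin-binding EGF-like factor, which is made as a membrane protein, shed by metalloproteases, and binds EGFR and ERBB4. Its TMM-scaled level was 5.15, 5.83 and 6.29 CPM with empty vector, 13.0, 10.7 and 8.12 CPM with CIC::DUX4 and 12.4, 10.1 and 10.3 CPM with CIC::NUTM1. All 6 fusion libraries lay above the 3 controls. The log2 fold change of HBEGF was 0.88 ± 0.181 (SE) with CIC::DUX4 (adjusted p = 0.00151 by edgeR) and 0.91 ± 0.181 with CIC::NUTM1 (adjusted p = 0.000652). Between the fusions it differed by 0.03 ± 0.176 on the log2 scale, and their libraries overlapped.

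NRG2, a neuregulin that binds ERBB3 and ERBB4, had 7.84, 9.98 and 10.3 CPM with empty vector. It had 12.4, 15.2 and 14.6 CPM with CIC::DUX4 and 16.4, 15.6 and 19.5 CPM with CIC::NUTM1. The 3 groups did not overlap. Its log2 fold change was 0.57 ± 0.149 with CIC::DUX4 (adjusted p = 0.0131 by edgeR) and 0.86 ± 0.148 with CIC::NUTM1 (adjusted p = 0.000114), and the difference between the fusions, 0.29 ± 0.146, was not called (adjusted p = 0.299). The CIC::DUX4 call was lost without empty vector replicate 1 (adjusted p = 0.0864) or CIC::DUX4 replicate 2 (adjusted p = 0.0734).

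The other 5 tested EGF-type ligands were not called in any comparison. TGFA, a ligand of EGFR, had 1.26, 1.14 and 0.962 CPM with empty vector, 0.725, 0.287 and 0.765 CPM with CIC::DUX4 and 1.02, 1.26 and 1.19 CPM with CIC::NUTM1. Its CIC::DUX4 libraries were the lowest of the 9, but the log2 difference from empty vector, -0.91 ± 0.486, did not pass (adjusted p = 0.322 by edgeR). NRG4, an ERBB4 ligand, averaged 4.24 ± 0.591 CPM (SD, n = 3) with empty vector, 2.93 ± 0.719 with CIC::DUX4 and 2.6 ± 0.866 with CIC::NUTM1. It was called lower with CIC::NUTM1 in the fit without CIC::NUTM1 replicate 3 (adjusted p = 0.045 by edgeR) and not in the others. Its exons overlap those of FBXO22 on the other strand, so reads of the 2 genes may be mixed if strand was not used in counting. NRG1 averaged 2.25 ± 0.699, 1.47 ± 0.408 and 1.38 ± 0.538 CPM in the same order. EGF and AREG stayed at low levels, with group means of 0.458 to 0.802 CPM and 0.317 to 0.748 CPM. Summed per kb of exon length over the 11 EGF-type genes, the level was 5.60 ± 0.616 CPM per kb (SD, n = 3) with empty vector, 8.14 ± 0.609 with CIC::DUX4 and 8.68 ± 0.53 with CIC::NUTM1. HBEGF and NRG2 made up most of it in each group.

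Among the secreted FGFs, FGF1 and FGF7 went from no reads to readily counted ones. FGF1, or acidic FGF, lacks a signal peptide and can activate all the FGF receptors. It had 0 counts in each of the 3 empty vector libraries, 28, 32 and 13 counts with CIC::DUX4 and 76, 93 and 77 counts with CIC::NUTM1. That is 1.07, 1.53 and 0.765 CPM with CIC::DUX4 and 4.56, 3.56 and 3.99 CPM with CIC::NUTM1. The 3 groups were apart, with CIC::NUTM1 above CIC::DUX4. Against the floor FGF1 was at least 8.86-fold higher with CIC::DUX4 and at least 31.9-fold higher with CIC::NUTM1. The edgeR fit of the counts, which does not use the floor, gave adjusted p = 1.33e-06 and 3.16e-09. FGF1 had passed the filter through these fusion groups alone. Between the fusions the log2 difference was 1.83 ± 0.368 (adjusted p = 0.00233), a factor of 3.6 between the mean levels.

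FGF7, the keratinocyte growth factor, is made mainly by mesenchymal cells and acts on the epithelial form of FGFR2. It also had 0 counts in each empty vector library, then 53, 57 and 18 counts with CIC::DUX4 and 74, 81 and 75 with CIC::NUTM1. In CPM these were 2.02, 2.73 and 1.06, and 4.44, 3.10 and 3.89. Against the floor FGF7 was at least 15.3-fold higher with CIC::DUX4 and at least 30.1-fold higher with CIC::NUTM1. The edgeR fit of the counts, again without the floor, gave adjusted p = 1.89e-07 and 6.76e-09. FGF7 too had passed the filter through the fusion groups alone. The fusion groups did not overlap, but the log2 difference between them, 0.95 ± 0.359, was not called (adjusted p = 0.133). FGF7 has partial copies elsewhere in the genome, and the 8 copies in the annotation had at most 3 counts in any library.

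FGF18, which acts through FGFR3 in growing cartilage and bone, was measurable in all libraries. It had 0.687, 0.351 and 0.281 CPM with empty vector, 4.23, 3.93 and 2.82 CPM with CIC::DUX4 and 3.30, 2.79 and 4.2 CPM with CIC::NUTM1. The fusion libraries overlapped with each other and lay far above the controls. The mean level of FGF18 was 8.33-fold higher with CIC::DUX4 (log2 fold change 3.13 ± 0.367, adjusted p = 1.01e-06 by edgeR) and 7.8-fold higher with CIC::NUTM1 (3.02 ± 0.369, adjusted p = 9.6e-07). The log2 difference between the fusions was -0.11 ± 0.3.

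FGF10, a mesenchymal ligand of FGFR2 needed for limb and lung buds, was scarce. Its counts were 1, 16 and 8 with empty vector, 14, 14 and 8 with CIC::DUX4 and 27, 14 and 35 with CIC::NUTM1. In CPM the CIC::NUTM1 libraries (1.62, 0.536 and 1.81) were above the controls (0.0572, 0.468 and 0.321), replicate 2 by little. The log2 fold change with CIC::NUTM1 was 2.08 ± 0.621 (adjusted p = 0.0224 by edgeR). That call was lost without empty vector replicate 1 (adjusted p = 0.106) or 3 (0.0736), or without CIC::NUTM1 replicate 1 (0.094) or 3 (0.137).

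**Figure D2:**
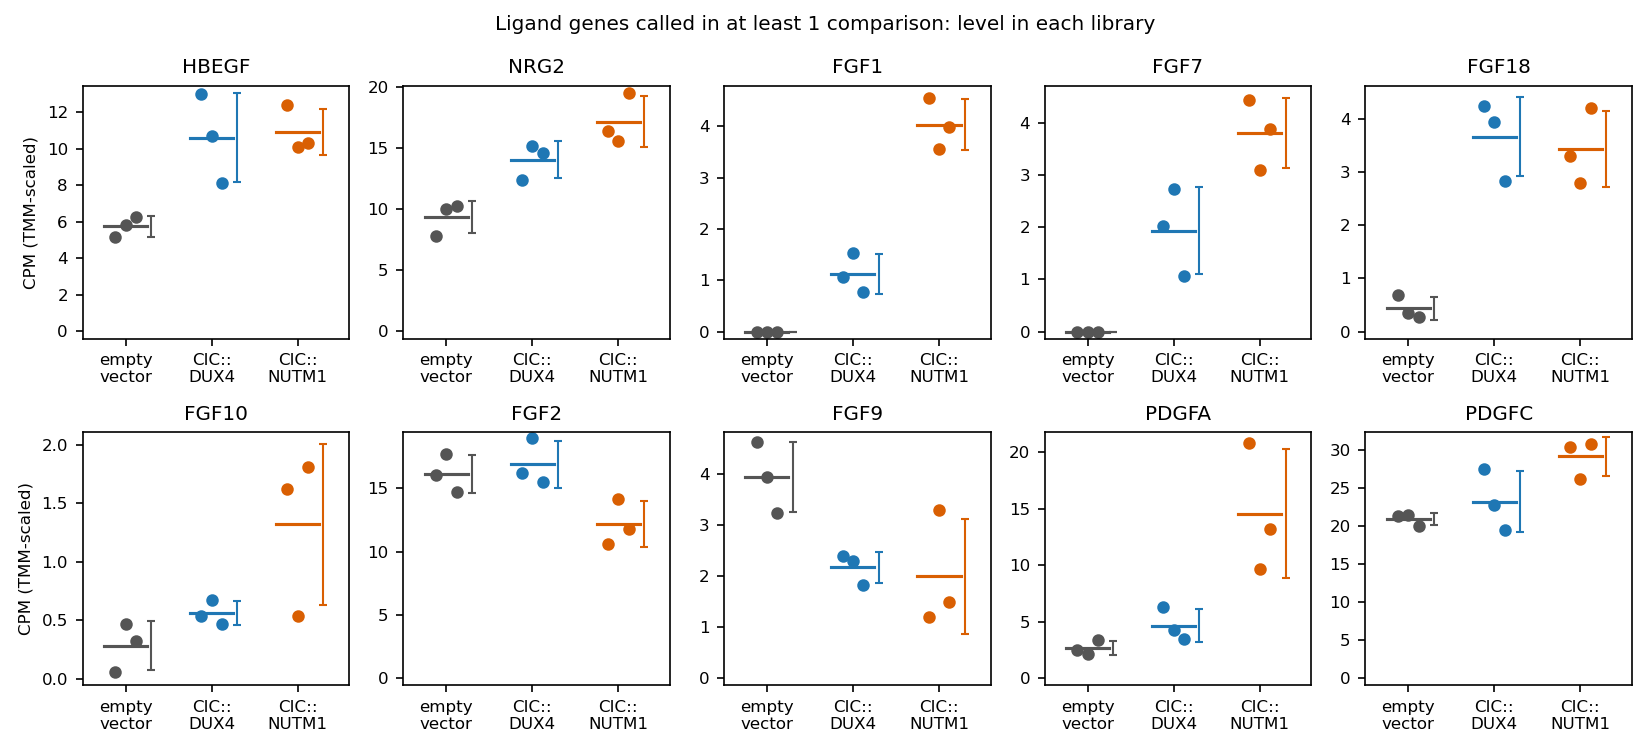
TMM-scaled CPM (y axis, from 0, each panel with its own range) of the 10 ligand genes called in at least 1 comparison, by group (x axis); dots are libraries, horizontal lines group means, and bars beside them ± SD of 3 libraries. FGF1 and FGF7 have no reads with empty vector. FGF9 has a lower mean than empty vector in both fusion groups, and FGF2 in the CIC::NUTM1 group only.

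FGF9 and FGF2 gave the lower calls. FGF9, a ligand of the mesenchymal forms of FGFR2 and FGFR3, had 4.63, 3.95 and 3.25 CPM with empty vector, 2.40, 2.30 and 1.82 CPM with CIC::DUX4 and 1.20, 3.29 and 1.5 CPM with CIC::NUTM1. The CIC::DUX4 libraries were all below the controls, while CIC::NUTM1 replicate 2 was within them. Nevertheless the call fell on CIC::NUTM1, with a log2 fold change of -0.93 ± 0.32 (adjusted p = 0.0487 by edgeR), and not on CIC::DUX4, with -0.84 ± 0.319 (adjusted p = 0.119). The difference between the fusions was -0.09 ± 0.332 (adjusted p = 0.928). Leaving out empty vector replicate 1, 2 or 3 raised the CIC::NUTM1 adjusted p to 0.163, 0.11 and 0.0601, and leaving out CIC::NUTM1 replicate 1 or 3 raised it to 0.211 and 0.169. The call was also lost with at least 10 counts in every library (0.0501) and in a fit of the 2 groups alone (0.0606).

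FGF2, or basic FGF, lacks a signal peptide like FGF1 and is the FGF commonly added to stem cell medium. It had 16.1, 17.7 and 14.7 CPM with empty vector, 16.2, 19.0 and 15.5 CPM with CIC::DUX4 and 10.6, 14.2 and 11.8 CPM with CIC::NUTM1. The CIC::NUTM1 libraries were the lowest 3 of the 9. The log2 difference of CIC::NUTM1 from CIC::DUX4 was -0.46 ± 0.142 (adjusted p = 0.0492 by edgeR), and from empty vector -0.40 ± 0.141 (adjusted p = 0.0545, not called). FGF2 was called lower than empty vector in 6 of 8 other settings (adjusted p from 0.0325 to 0.0467) and without CIC::NUTM1 replicate 2 (0.0152). The call between the fusions was lost in 5 of 6 fits that left out a library, with adjusted p of 0.177 and 0.136 without CIC::NUTM1 replicate 1 or 3 and 0.0809, 0.244 and 0.0572 without CIC::DUX4 replicate 1, 2 or 3, and in a fit of the 2 fusion groups alone (0.069). FGF2 shares exon sequence with NUDT6 on the other strand, which had 97 to 183 counts per library, so reads of the 2 genes may be mixed if strand was not used in counting.

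The remaining secreted FGFs that could be tested were not called. FGF5, a ligand known for ending the hair growth phase, had 3.6, 3.57 and 3.09 CPM with empty vector, 2.33, 2.40 and 3.0 CPM with CIC::DUX4 and 1.14, 2.53 and 2.69 CPM with CIC::NUTM1. Both fusion groups lay below the controls, with log2 differences of -0.42 ± 0.295 and -0.67 ± 0.299 that did not pass (edgeR adjusted p = 0.492 and 0.146). FGF17 averaged 0.811 to 0.926 CPM and FGF22 0.549 to 0.625 CPM over the groups. Over the 15 secreted FGF genes, the summed level per kb of exon was 4.88 ± 0.497 CPM per kb (SD, n = 3) with empty vector, 6.72 ± 1.03 with CIC::DUX4 and 7.05 ± 0.297 with CIC::NUTM1. FGF2 had the highest mean per kb of them in every group, with 2.39, 2.49 and 1.8 CPM per kb, and FGF18 reached 1.84 and 1.73 CPM per kb in the fusion groups, overlapping FGF2 in the CIC::NUTM1 libraries.

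The FGFs that do not act as local ligands showed no called change. FGF23, the phosphate-regulating hormone, was the endocrine member with enough reads to test, at means of 0.452 ± 0.158, 0.511 ± 0.352 and 0.467 ± 0.41 CPM with empty vector, CIC::DUX4 and CIC::NUTM1. FGF12 and FGF13 belong to the FGF homologous factors, which stay inside the cell and bind voltage-gated sodium channels. FGF12 averaged 4.26, 4.71 and 5.02 CPM and FGF13 averaged 15.8, 12.8 and 13.8 CPM in the same order, with overlapping libraries.

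Of the PDGF genes, PDGFA separated the fusions. It encodes the PDGF A chain, whose dimer activates PDGFRA. PDGFA had 2.52, 2.14 and 3.37 CPM with empty vector, 6.26, 4.22 and 3.41 CPM with CIC::DUX4 and 20.8, 9.68 and 13.2 CPM with CIC::NUTM1. The 3 groups did not overlap, though CIC::DUX4 replicate 3 was next to the highest control. The mean level was 5.44-fold higher with CIC::NUTM1 than with empty vector (log2 fold change 2.44 ± 0.283, adjusted p = 3.29e-06 by edgeR) and 3.14-fold higher than with CIC::DUX4 (1.62 ± 0.27, adjusted p = 0.00063). With CIC::DUX4 the log2 difference from empty vector, 0.82 ± 0.293, was not called (adjusted p = 0.108), but it was when genes were not filtered on low counts (adjusted p = 0.00708).

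PDGFC, a latent PDGF that plasmin and tissue plasminogen activator release, had 21.3, 21.4 and 20 CPM with empty vector, 27.4, 22.7 and 19.4 CPM with CIC::DUX4 and 30.3, 26.2 and 30.8 CPM with CIC::NUTM1. It was higher than empty vector with CIC::NUTM1, by 0.47 ± 0.12 on the log2 scale (adjusted p = 0.00686 by edgeR), and the CIC::DUX4 libraries overlapped both other groups. Between the fusions PDGFC differed by 0.32 ± 0.12 (adjusted p = 0.127), which passed without CIC::DUX4 replicate 1 (adjusted p = 0.0331). PDGFD, which activates PDGFRB, averaged 1.56 ± 0.209, 1.36 ± 0.255 and 1.24 ± 0.386 CPM with empty vector, CIC::DUX4 and CIC::NUTM1 and was not called.

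VEGFA, VEGFB and VEGFC were not called in any comparison. VEGFA, the main angiogenic factor, had 59.5, 52.1 and 51.1 CPM with empty vector, 54.4, 57.6 and 60.9 CPM with CIC::DUX4 and 56.4, 61.8 and 49.3 CPM with CIC::NUTM1. On the log2 scale CIC::DUX4 differed from empty vector by 0.09 ± 0.0907, and CIC::NUTM1 by 0.05 ± 0.0908. VEGFB, a ligand of FLT1, averaged 44.7 ± 6.94, 43.1 ± 3.23 and 41.3 ± 3.54 CPM (SD, n = 3). VEGFC, the lymphatic factor, averaged 5.79 ± 0.304, 6.67 ± 0.906 and 7.49 ± 0.626 CPM, and its CIC::NUTM1 libraries were above the controls without passing the test (log2 difference 0.37 ± 0.183, adjusted p = 0.202 by edgeR).

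Per kb of exon length, VEGFB stood highest of the 40 genes in every group, with means of 29, 27.9 and 26.8 CPM per kb and each of its libraries above those of the next gene. With empty vector the next were VEGFA (3.76 CPM per kb) and PDGFC (3.74), which overlapped, then VEGFC and FGF2 (both 2.39), NRG2 (2.07) and HBEGF (1.91), each of these last 4 overlapping its neighbour in that order. With CIC::NUTM1, PDGFC (5.2) came second, and VEGFA (3.87), NRG2 (3.80), HBEGF (3.62) and PDGFA (3.51) followed with overlapping libraries. FGF1 rose to 0.765 CPM per kb with CIC::NUTM1 and overlapped FGF12 (0.683). The ligands that changed by the largest factors, FGF1 and FGF7, thus stayed at low levels beside VEGFB, VEGFA and PDGFC.

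**Figure D3:**
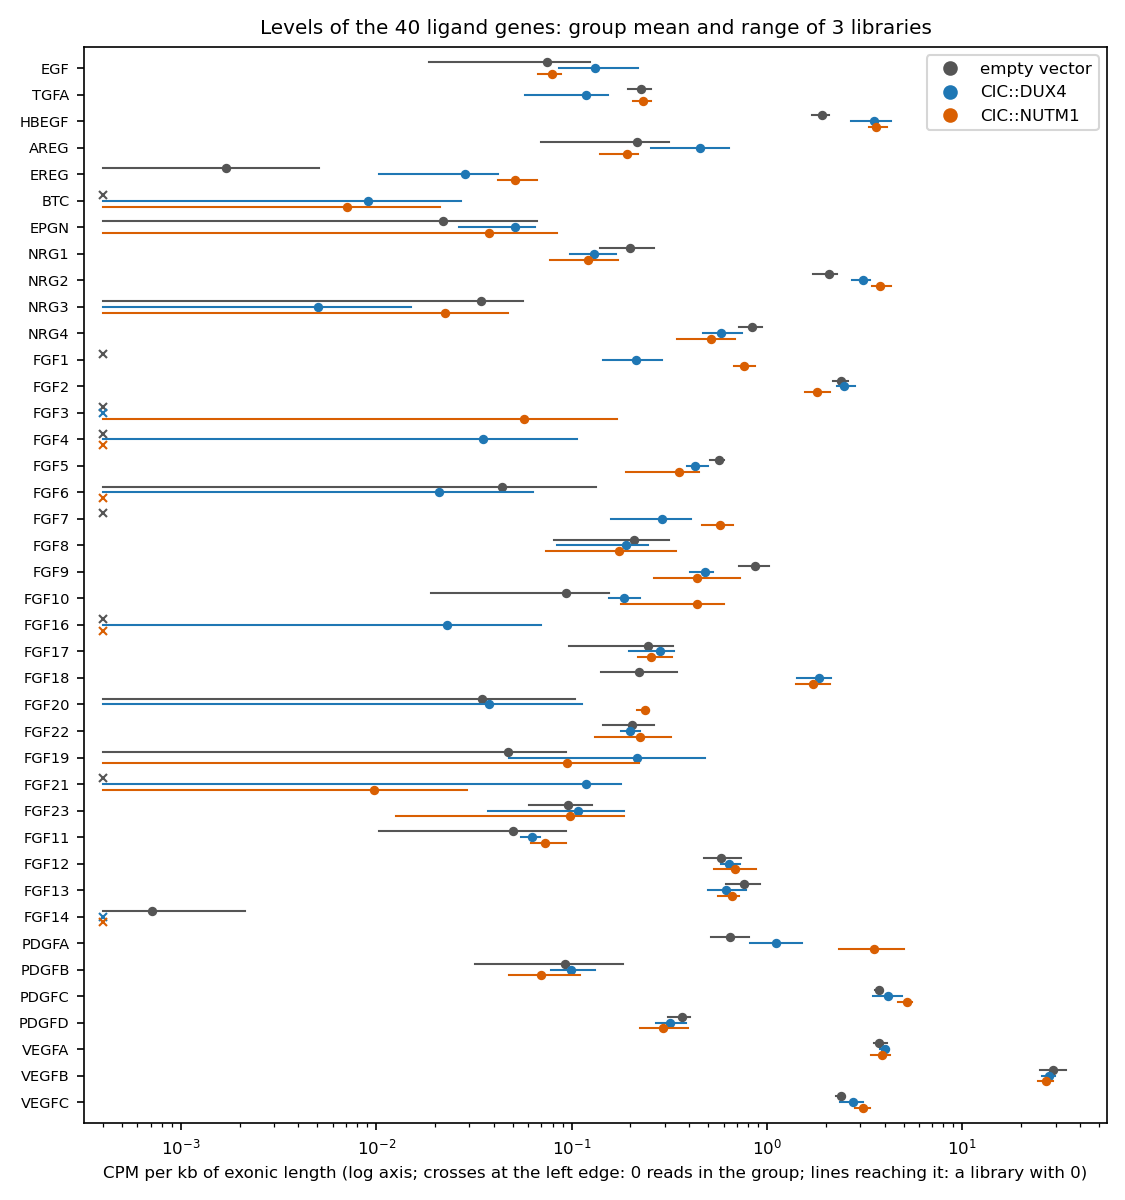
Level per kb of exon length (x axis, CPM per kb, log scale) of all 40 ligand genes (rows), with the group mean as a dot and the range of 3 libraries as a line; crosses at the left edge stand for 0 reads in a group. VEGFB is highest in each group at 26.8 to 29 CPM per kb, and FGF1 and FGF7 have crosses for empty vector.

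The other 15 genes had too few reads to test. They were EREG, BTC, EPGN and NRG3 of the EGF family, FGF3, FGF4, FGF6, FGF8, FGF16 and FGF20 of the secreted FGFs, FGF19 and FGF21 of the endocrine FGFs, FGF11 and FGF14 of the homologous factors, and PDGFB. Their highest count in any library was 31, for FGF19 in CIC::DUX4 replicate 1, whose other replicates had 6 and 2 counts. EREG, the EGFR and ERBB4 ligand epiregulin, had 0, 1 and 0 counts with empty vector, 5, 5 and 1 with CIC::DUX4 and 4, 10 and 5 with CIC::NUTM1. FGF20 had 0, 6 and 0 counts with empty vector, 5, 0 and 0 with CIC::DUX4 and 7, 11 and 7 with CIC::NUTM1. Pooled over 3 libraries, the 15 genes held 106 counts in the empty vector group, 154 in CIC::DUX4 and 128 in CIC::NUTM1. In CPM, which is scaled to depth, the sums by library were 1.37, 1.41 and 1.36 with empty vector, 3.74, 1.63 and 1.29 with CIC::DUX4 and 2.52, 1.68 and 2.18 with CIC::NUTM1. The CIC::NUTM1 sums lay above the controls and the CIC::DUX4 sums overlapped them. In CPM, EREG was above the controls in every library of both fusions, in CIC::DUX4 replicate 3 on 1 count, and FGF20 in every CIC::NUTM1 library. These differences were not tested in the main fit, and results of the fit without a filter are not given for these genes.

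The receptors and coreceptors of these ligands moved in a few cases. Of 18 genes, 16 were tested, 2 were higher and 0 lower with CIC::DUX4, and 5 were higher and 0 lower with CIC::NUTM1. Over all tested genes 6.96% and 11.5% were called higher and 1.27% and 3.83% lower. At an unadjusted p under 0.05, 2 were lower with CIC::DUX4 and 1 with CIC::NUTM1. NRP1, the neuropilin that serves VEGF receptors as coreceptor, had 28.0, 32.5 and 31.9 CPM with empty vector, 60.0, 52.2 and 46.9 CPM with CIC::DUX4 and 106, 71.3 and 106 CPM with CIC::NUTM1. The 3 groups did not overlap, and the log2 fold change was 0.78 ± 0.14 (adjusted p = 0.0018 by edgeR) and 1.61 ± 0.14 (adjusted p = 8.41e-07), with 0.82 ± 0.136 between the fusions (adjusted p = 0.00142).

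FGFR3, a receptor of FGF1, FGF9 and FGF18, averaged 151 ± 19.7 CPM with empty vector, 201 ± 15.0 with CIC::DUX4 and 265 ± 34.4 with CIC::NUTM1 (SD, n = 3). Its log2 fold change was 0.42 ± 0.101 (adjusted p = 0.0167 by edgeR, 0.071 without CIC::DUX4 replicate 3) and 0.81 ± 0.101 (adjusted p = 3.33e-05). FGFRL1, an FGF receptor without a kinase domain, was higher with CIC::NUTM1 than with empty vector (0.49 ± 0.0881, adjusted p = 0.000236). Both receptors were also called higher when CIC::NUTM1 was set against CIC::DUX4, and those calls were lost in 4 of 6 fits that left out a library for FGFR3 (adjusted p up to 0.126, without CIC::DUX4 replicate 2; the others were CIC::DUX4 replicate 1 and CIC::NUTM1 replicates 1 and 3) and in 3 of 6 for FGFRL1 (up to 0.0646, without CIC::NUTM1 replicate 1; the others were CIC::DUX4 replicates 1 and 2).

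KDR, the main VEGFA receptor, had 0.515, 0.849 and 0.200 CPM with empty vector, 6.87, 1.20 and 1.35 CPM with CIC::DUX4 and 5.76, 3.41 and 4.2 CPM with CIC::NUTM1. CIC::DUX4 replicate 1 stood far above its group, and KDR was called with CIC::NUTM1 (log2 fold change 3.01 ± 0.765, adjusted p = 0.0274 by edgeR) and not with CIC::DUX4 (2.56 ± 0.767, adjusted p = 0.0876). KDR had 9, 29 and 5 counts with empty vector and passed the filter on low counts only with the fusion libraries. Its call was lost without empty vector replicate 1 (0.0988) or 3 (0.097) or CIC::NUTM1 replicate 1 (0.0795) or 3 (0.0808). ERBB4, a neuregulin and HBEGF receptor, was called with CIC::NUTM1 (0.59 ± 0.192, adjusted p = 0.038) and lost that call without empty vector replicate 1 (0.133) or 2 (0.113) or CIC::NUTM1 replicate 3 (0.322), and with library totals in place of TMM (0.0533). EGFR (19.0, 15.4 and 16.2 CPM), FGFR1 (112, 99.3 and 102 CPM), FGFR2 (34.9, 33.1 and 32.4 CPM) and PDGFRA (1.52, 1.65 and 1.49 CPM; means in the order empty vector, CIC::DUX4, CIC::NUTM1) were not called.

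Proteins that release or carry the ligands gave 3 genes higher of 14 tested (15 listed) with CIC::DUX4 and 2 with CIC::NUTM1, beside 6.96% and 11.5% of all tested genes, so that the CIC::NUTM1 count is near the background. None was called lower (background 1.27% and 3.83%); at an unadjusted p under 0.05, 2 and 1 were lower. FGFBP3, a secreted protein that frees FGFs from heparan sulfate, had 10.2, 9.14 and 10.5 CPM with empty vector, 22.4, 19.1 and 19.9 CPM with CIC::DUX4 and 25.6, 18.6 and 23.4 CPM with CIC::NUTM1. Its log2 fold change was 1.04 ± 0.136 (adjusted p = 4.82e-06 by edgeR) and 1.18 ± 0.136 (adjusted p = 4.37e-07). PCSK5, a proprotein convertase, rose by 0.64 ± 0.126 and 0.90 ± 0.125 on the log2 scale. ADAM12, a metalloprotease that can shed HBEGF, rose with CIC::DUX4 (2.22 ± 0.545, adjusted p = 0.00831), a call lost without empty vector replicate 3 (0.0537) or CIC::DUX4 replicate 1 (0.105). ADAM12 had 8, 21 and 4 counts with empty vector and passed the filter on low counts only with the fusion libraries. The count of higher genes in this list is therefore a description. ADAM9 was above its CIC::DUX4 level in the CIC::NUTM1 group (0.39 ± 0.0694, adjusted p = 0.000548).

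Heparan sulfate genes, whose products bind FGFs and HBEGF at the cell surface, gave 3 higher and 1 lower of 18 tested (19 listed) in each comparison with empty vector. Of all tested genes, 6.96% were higher and 1.27% lower with CIC::DUX4 and 11.5% and 3.83% with CIC::NUTM1, so that the CIC::NUTM1 counts are near the background. SULF1, a sulfatase that trims heparan sulfate outside the cell, had 5.89, 5.71 and 8.01 CPM with empty vector, 33.9, 24.8 and 24.8 CPM with CIC::DUX4 and 30.3, 23.5 and 30.6 CPM with CIC::NUTM1. Its log2 fold change was 2.09 ± 0.159 (adjusted p = 2.42e-09 by edgeR) and 2.10 ± 0.159 (adjusted p = 1.1e-09). EXT1, a polymerase of the chain, rose by 0.71 ± 0.084 and 0.69 ± 0.0842. The other calls were small. GPC1 was higher with CIC::DUX4 (0.28 ± 0.0856, adjusted p = 0.0395) and EXT2 with CIC::NUTM1 (0.27 ± 0.0666, adjusted p = 0.00606). SDC1 was lower with CIC::DUX4 (-0.55 ± 0.135, adjusted p = 0.00864) and NDST1 with CIC::NUTM1 (-0.19 ± 0.0613, adjusted p = 0.0337). These 4 calls did not hold when single libraries were left out: GPC1 was lost without any library but empty vector replicate 3 (adjusted p up to 0.178, without empty vector replicate 1), NDST1 without any but CIC::NUTM1 replicate 2 (up to 0.128, without empty vector replicate 2; also 0.0514 in a fit of the 2 groups alone), SDC1 without empty vector replicate 3 (0.0968) or CIC::DUX4 replicate 1 (0.102), and EXT2 without CIC::NUTM1 replicate 3 (0.0605). SDC2 was above its CIC::DUX4 level in the CIC::NUTM1 group (0.38 ± 0.0896, adjusted p = 0.00905, 0.0776 without CIC::DUX4 replicate 1).

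Of the adaptors between receptor and RAS, 1 of 11 was higher with CIC::DUX4 (6.96% of all tested genes) and 2 with CIC::NUTM1 (11.5%), counts near the background, and 0 were lower in either (background 1.27% and 3.83%), also at an unadjusted p under 0.05. CBLB, a ubiquitin ligase that turns receptors over, had 14.4, 14.2 and 11.5 CPM with empty vector, 37.1, 28.0 and 25.6 CPM with CIC::DUX4 and 17.9, 17.4 and 21.2 CPM with CIC::NUTM1. It was called in all 3 comparisons: 1.18 ± 0.139 with CIC::DUX4 (adjusted p = 1.04e-06 by edgeR), 0.49 ± 0.141 with CIC::NUTM1 (adjusted p = 0.0173, lost without empty vector replicate 3, 0.123, or CIC::NUTM1 replicate 3, 0.121) and -0.69 ± 0.137 between the fusions (adjusted p = 0.00171). FRS2, the docking protein of FGF receptors, was called with CIC::NUTM1 (0.36 ± 0.102, adjusted p = 0.0149), but not without empty vector replicate 1 (0.072) or 3 (0.0546) or CIC::NUTM1 replicate 3 (0.132).

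A set of 10 genes used as a MAPK activity score was also followed, of which CIC itself is known to repress several. ERK activity was not measured, and whether it differed between the groups was not tested. All 10 were called higher with each fusion, beside 6.96% and 11.5% of all tested genes, with medians of 3.03 and 3.56 on the log2 scale. SPRY4, DUSP6 (6, 44 and 8 counts with empty vector) and ETV4 passed the filter on low counts only with the fusion libraries. The counts and medians of this set are therefore descriptions. The call of PHLDA1 was lost without CIC::DUX4 replicate 1 (adjusted p = 0.107 by edgeR), and its call with CIC::NUTM1 without empty vector replicate 2 (0.0515) or 3 (0.162) or CIC::NUTM1 replicate 1 (0.0538) or 3 (0.109). SPRY4, an inhibitor of receptor signalling, had 0 CPM in the 3 empty vector libraries, 63.8, 44.4 and 37.3 CPM with CIC::DUX4 and 122, 77 and 93.3 CPM with CIC::NUTM1, at least 383-fold and 770-fold above the floor. ETV4, a PEA3 factor, had 0.401, 0.527 and 0.601 CPM with empty vector, 232, 165 and 182 CPM with CIC::DUX4 and 255, 156 and 211 CPM with CIC::NUTM1. In the CIC::NUTM1 group replicate 1 was highest and replicate 2 lowest for ETV4, SPRY4 and PDGFA, an order looked at after the values were seen. Of the other ligand genes called higher with CIC::NUTM1, HBEGF, FGF1 and FGF7 kept this order. For NRG2, FGF10, FGF18 and PDGFC replicate 3 was highest. Whether the libraries held different amounts of fusion was not tested.

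Ligands of other receptor tyrosine kinases gave 6 of 17 tested genes higher (23 listed) with CIC::DUX4 and 7 with CIC::NUTM1, beside 6.96% and 11.5% of all tested genes. The counts include IGF1, which passed the filter on low counts through the fusion libraries alone. ANGPT2, which had some reads with empty vector, also passed it only with the fusion libraries. These counts are therefore descriptions. None was called lower (background 1.27% and 3.83%); at an unadjusted p under 0.05, 1 was lower with each fusion. ANGPT2, a ligand of the TIE2 receptor, had 0.572, 0.381 and 0.441 CPM with empty vector, 6.98, 5.75 and 6.29 CPM with CIC::DUX4 and 50.1, 31.0 and 51.7 CPM with CIC::NUTM1. The groups were far apart, with log2 fold changes of 3.82 ± 0.271 and 6.61 ± 0.242 and 2.79 ± 0.172 between the fusions (adjusted p = 5.92e-10 by edgeR). KITLG, the KIT ligand, had 20.6, 22.9 and 21.7 CPM with empty vector, 89.8, 68.7 and 65.2 CPM with CIC::DUX4 and 116, 89.8 and 126 CPM with CIC::NUTM1. IGF1 had no reads with empty vector, 2.63, 2.11 and 1.59 CPM with CIC::DUX4 and 0.66, 0.536 and 0.363 CPM with CIC::NUTM1, at least 16.7-fold and 4.1-fold above the floor. ANGPT1 rose by 2.7 ± 0.335 and 1.77 ± 0.344 and IGF2 by 1.74 ± 0.41 and 2.90 ± 0.4 on the log2 scale. BDNF, a TRKB ligand, was higher with CIC::NUTM1 (2.94 ± 0.475, adjusted p = 5.35e-05 by edgeR). Its call with CIC::DUX4 (1.62 ± 0.491, adjusted p = 0.0395) was lost without any library but CIC::DUX4 replicate 3, with adjusted p up to 0.189 without CIC::DUX4 replicate 2, and also in a fit of the 2 groups alone (0.0749), with limma-trend (0.0645) and with the replicate number as a block (0.059).

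**Figure D4:**
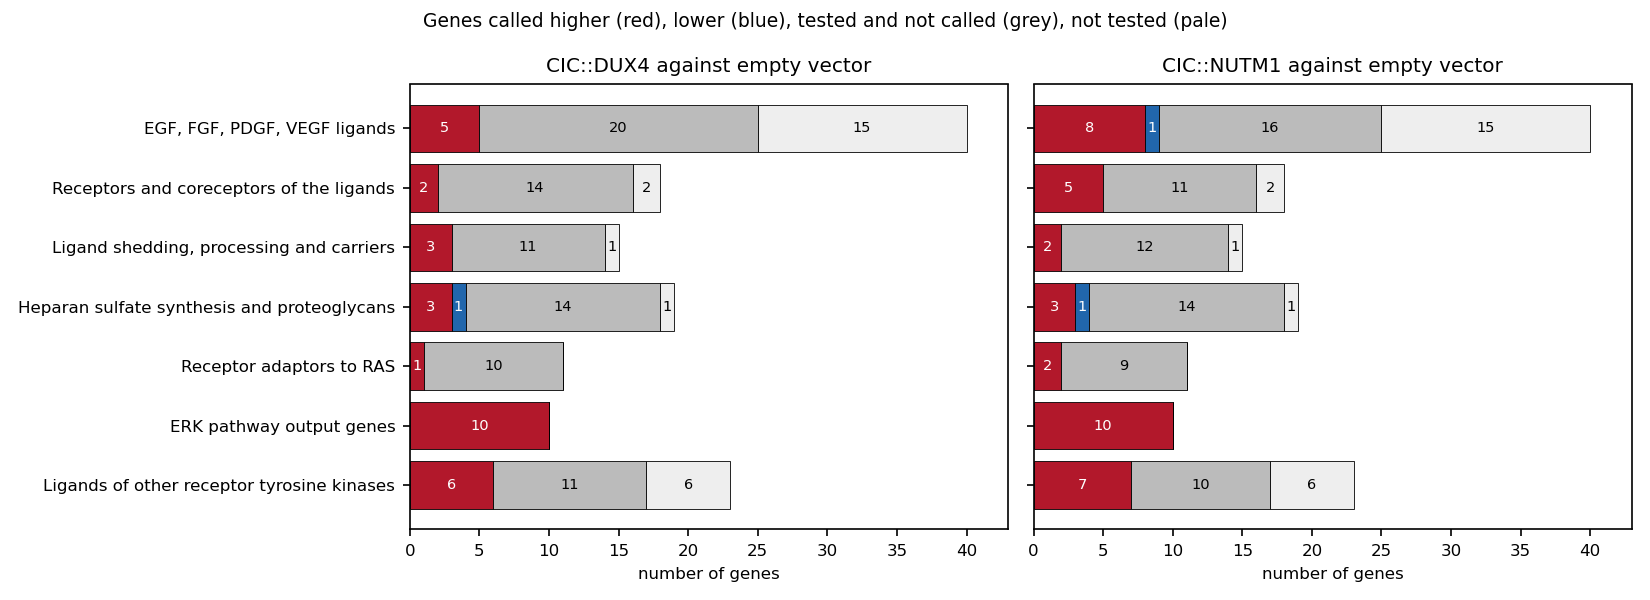
Number of genes (x axis) in each list (rows) that were called higher, called lower, tested and not called, or not tested, for CIC::DUX4 (left) and CIC::NUTM1 (right) against empty vector. All 10 genes of the MAPK activity score (row ERK pathway output genes) are called higher in both panels, and the ligand row holds 5 and 8 higher calls.

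The marker genes of the cell line and of other cell types also differed between groups in part. Of the 8 markers fixed for the 293T line, 7 were counted in every library, with a summed level over the 8 of 1340 to 1550 CPM with empty vector, 1270 to 1310 CPM with CIC::DUX4 and 1310 to 1450 CPM with CIC::NUTM1, most of it VIM and NEFM. PAX8, the eighth, had 0 counts in each empty vector library, 45, 22 and 13 counts with CIC::DUX4 and 5, 1 and 2 with CIC::NUTM1. Among the others NEFL and NEFM were called lower and GATA3 higher with each fusion, KRT8 was called higher with CIC::DUX4 (1.31 ± 0.274 on the log2 scale), VIM was called higher with CIC::NUTM1 (0.31 ± 0.053), and KRT18 and PAX2 were not called against empty vector.

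Of 6 mature tubule markers, UMOD and SLC34A1 were at 0 in all libraries, AQP2 had reads in a single library, and the sum was 20.3 to 28.8 CPM with empty vector, 26.9 to 32.1 CPM with CIC::DUX4 and 31.1 to 40.3 CPM with CIC::NUTM1. SLC12A1 had 0 CPM with empty vector, 1.56, 0.814 and 1.18 CPM with CIC::DUX4 and 2.04, 1.57 and 1.97 CPM with CIC::NUTM1, and was called higher with both, as LRP2 (0.40 ± 0.125) and CUBN (1.40 ± 0.452) were with CIC::NUTM1. The podocyte gene NPHS1 had 1, 0 and 0 counts with empty vector, 56, 31 and 49 with CIC::DUX4 and 32, 31 and 15 with CIC::NUTM1 and was called higher with both, while PODXL and WT1 were not called. The 4 fibroblast markers summed to 39.4 to 42, 36.0 to 43 and 39.2 to 42.3 CPM in the same order of groups, most of it COL1A1. LUM was called higher with both fusions (1.03 ± 0.222 and 1.42 ± 0.221) and DCN with CIC::NUTM1 (3.77 ± 0.926), COL1A1 was called lower with CIC::NUTM1 (-0.34 ± 0.115), and COL3A1 was not called. The 4 endothelial markers summed to at most 0.954 CPM in any library and were not tested. The 4 leukocyte markers summed to 1.20 to 3.21, 1.82 to 2.56 and 3.94 to 5.94 CPM. PTPRC was called higher with both fusions (3.83 ± 1.08 and 4.86 ± 1.02), at no more than 1.44 CPM, and CD14 with CIC::NUTM1 (2.86 ± 0.686), whereas CD3E had reads in a single library. The part of these differences in the ligand results was not tested.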

How the data were processed

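Read counts by Ensembl gene ID and a table of log2 CPM were deposited by the authors. STAR 2.7.10b, R 4.2.2, edgeR 3.40.2 and GRCh38 are named in the submitters' processing notes, and polyA selection and a strand-directional kit in the labels' protocols. The annotation, the counting program and its use of strand are not given in the sources used here. The deposited log2 values equalled TMM-scaled log2 CPM computed here from the counts for 11512 matched genes with over 100 counts (largest difference 4.97e-14).

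Symbols matched 62622 of 62700 gene IDs. Counts were fitted with edgeR 4.0.16 in R 4.3.3: filterByExpr (17576 of 34765 genes with a count), TMM scaling, and the robust quasi-likelihood fit over all 9 libraries, each group having 1 mean. The call threshold was 0.05 on p adjusted by Benjamini-Hochberg. The SE was taken from F, as the log2 fold change over its square root. Levels are TMM-scaled CPM, divided for comparisons between genes by GENCODE 29 exon length in kb. Floors cover counting error only. Libraries of 1 group differed by more than sampling noise in all 9 pairs (chi-square per degree of freedom 5.73 to 9.71). The script was tested on simulated data.

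All 40 members are accounted for, tested ones with values, and of the other lists called genes are named, at most 4 per list and comparison plus those that a small count required. Members and lists were chosen with earlier results of these data known. Alternatives were other scalings, filters, DESeq2 1.42, limma 3.58.1 on the deposited log2 CPM, the 2 groups alone, a replicate block, each library left out and a log2 change of at least 1. CIC, NUTM1 and DUX4 were not analysed here, and 1 fixed marker gene is not reported here. No protein sequences were used here.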

Additional observations from a re-analysis of the deposited data

How the results depend on the processing

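No ligand gene called in any fit changed direction under the alternatives run. Of ligand genes higher with CIC::DUX4 (5), 2 were called when at least 10 counts were required in every library and 3 when a log2 change of at least 1 was required. Of those higher with CIC::NUTM1 (8), these settings gave 4 and 5, and of those higher in the comparison of CIC::NUTM1 against CIC::DUX4 (2), the count minimum gave 1. FGF1, FGF7, FGF10 and FGF18 could not be tested under the count minimum, which removes genes low in any library. Lower calls were few and moved with most settings. With CIC::DUX4, 1 gene, FGF9, was called lower (adjusted p = 0.0436) when the fit held the 2 groups compared. With CIC::NUTM1 the 1 lower gene became 2 with DESeq2 size factors, library totals, no filter, DESeq2, limma-trend or the replicate block, the gene gained being FGF2 (adjusted p from 0.0325 to 0.0467), and 0 with the count minimum, with the 2 groups compared or with the minimum change. Without each library in turn it ranged from 0 to 2. Between the fusions the 1 lower gene, FGF2, became 0 with the 2 groups compared or the minimum change, and 0 to 1 without each library in turn. Where no cause is given, the cause was not tested.

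Same-numbered libraries of different groups had deviations from their group means that correlated at -0.0308 to 0.0753 over 9 pairs, so the replicate numbers were not taken to pair the libraries. With the replicate block the counts of higher ligand genes stayed at 2 between the fusions, 8 for CIC::NUTM1 and 5 for CIC::DUX4. Among the other lists, the call of BDNF with CIC::DUX4 was lost under it (adjusted p = 0.059). Depth limits the 15 untested genes, the highest of which had 31 counts.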

Other observations

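Neighbours within 500 kb of the 10 called ligand genes were counted after the values were seen, and the counts per gene are small. Over all tested genes 6.96% were called higher with CIC::DUX4 and 11.5% with CIC::NUTM1. Within 500 kb of FGF1 (GRCh38, chromosome 5, 142592178 to 142698070, minus strand), 3 other genes were tested and 2 were called higher with each fusion. SPRY4 lies 265723 bases away and ARHGAP26 72307 bases away, the latter at 20.4 ± 0.941 CPM (SD, n = 3) with empty vector, 38.6 ± 3.82 with CIC::DUX4 and 52.0 ± 3.33 with CIC::NUTM1. Near FGF7 (chromosome 15, 49423096 to 49488775, plus strand), SHC4, an adaptor gene 459652 bases away, averaged 0.253 ± 0.241, 39.4 ± 5.37 and 37.9 ± 9.85 CPM, and 1 of 7 tested neighbours was called higher with CIC::DUX4 and 3 with CIC::NUTM1. Near FGF18 (chromosome 5, 171419656 to 171457623, plus strand), TLX3, a homeobox gene 107522 bases away, averaged 3.67 ± 0.776, 11 ± 0.53 and 17.6 ± 5.19 CPM. NPM1, 8519 bases from FGF18, was not called with either fusion. Of 5 tested neighbours of FGF18, 3 were called higher with CIC::DUX4 and 2 with CIC::NUTM1. In the same order HBEGF had 3 and 5 of 21, NRG2 3 and 4 of 18, FGF2 0 and 1 of 6, and FGF9 (of 5), FGF10 (of 3), PDGFA (of 11) and PDGFC (of 1) had 0 called higher. With CIC::NUTM1, 1 neighbour of HBEGF and 1 of FGF9 were called lower, beside 3.83% of all tested genes. With CIC::DUX4, 0 neighbours were called lower, beside 1.27%. HBEGF and NRG2 lie 289544 bases apart, so each counts as a called neighbour of the other. Their other called neighbours are largely the same genes, such as CYSTM1, so these tallies are not separate.

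All 5 ligand genes on chromosome 5 (NRG2, HBEGF, FGF1, FGF10 and FGF18) were called higher with CIC::NUTM1. Of the 777 tested genes of that chromosome, 12.4% were called higher with CIC::NUTM1 and 6.69% with CIC::DUX4, beside 11.5% and 6.96% of all tested genes. The count for chromosome 5 was not planned beforehand. FGF1, FGF10 and FGF18 passed the filter only with the fusion libraries, and the FGF10 call was lost in 4 of 6 fits that left out a library.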
